A study of Homo sapiens with 6 samples.

Results

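Secreted factors that act on blood vessels were examined as a group of 10 genes: VEGFA, VEGFB, VEGFC, PGF, ADM, ANGPTL4, ANGPT1, ANGPT2, FGF2 and EDN1. Members were taken by gene name, and every probe set whose single annotated symbol equalled a member was kept. This gave 23 of the 54613 probe sets tested, and 10 of the 19775 genes that had a probe set of their own. VEGFA and ANGPT2 had 4 probe sets each, ANGPT1 and EDN1 had 3, PGF, ANGPTL4 and FGF2 had 2, and VEGFB, VEGFC and ADM had 1. Gene expression was measured in DMS-53, a human small cell lung cancer line, on 6 Affymetrix U133 Plus 2.0 arrays, 2 for each of 3 groups. The groups were cells in RPMI medium with 250 µM DFO (desferrioxamine, an iron-binding siderophore that enters cells poorly), cells in RPMI medium with 25 µM Dp44mT (a thiosemicarbazone chelator of iron and copper that crosses membranes), and control cells in RPMI medium alone. All were incubated for 24 h. The comparison asked how these factors responded to the chelators in a single cell line, and whether replicates were separate cultures is not given in the sources used here. The p-values therefore reflect variation among these arrays, which may be technical.

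Secreted angiogenic factors act mainly on endothelial cells through receptors on their surface. VEGFA, VEGFB and PGF bind VEGF receptors that drive the growth of blood vessels, VEGFC acts chiefly on lymphatic vessels, and ANGPT1 and ANGPT2 are opposing ligands of the TEK receptor. ADM encodes adrenomedullin and EDN1 endothelin, peptides that widen and narrow vessels. ANGPTL4 encodes an inhibitor of lipoprotein lipase that also acts on vessels, and FGF2 a heparin-binding growth factor. Hypoxia-inducible factors (HIF) raise the transcription of several of these genes when oxygen is low, and the prolyl hydroxylases that mark HIF for destruction need iron.

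HIF binds the letters ACGTG or GCGTG in promoters and enhancers. The promoter windows below, each 250 bases before to 50 after an annotated gene start, are shown for 2 genes that rose with both chelators, ADM and ANGPTL4, and for EDN1, none of whose probe sets passed the test. They are RefSeq sequences of build GRCh38.p14, 5′ to 3′ on the strand of the gene, and capitals mark ACGTG or GCGTG on either strand. ADM lies at chr11:10304823-10305122, ANGPTL4 at chr19:8363905-8364204 and this EDN1 window, 1 of 3 annotated for the gene, at chr6:12290111-12290410, all on the plus strand.
ADM: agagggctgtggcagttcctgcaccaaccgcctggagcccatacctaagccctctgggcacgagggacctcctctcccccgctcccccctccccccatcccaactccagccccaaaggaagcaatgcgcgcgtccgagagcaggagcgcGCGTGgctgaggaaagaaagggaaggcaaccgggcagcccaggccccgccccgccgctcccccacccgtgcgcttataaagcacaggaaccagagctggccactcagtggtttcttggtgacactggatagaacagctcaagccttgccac
ANGPTL4: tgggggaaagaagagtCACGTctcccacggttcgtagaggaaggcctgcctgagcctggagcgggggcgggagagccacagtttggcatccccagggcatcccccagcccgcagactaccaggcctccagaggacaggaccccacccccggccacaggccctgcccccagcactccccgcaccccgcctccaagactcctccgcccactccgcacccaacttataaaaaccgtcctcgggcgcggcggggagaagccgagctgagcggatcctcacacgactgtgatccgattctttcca
EDN1: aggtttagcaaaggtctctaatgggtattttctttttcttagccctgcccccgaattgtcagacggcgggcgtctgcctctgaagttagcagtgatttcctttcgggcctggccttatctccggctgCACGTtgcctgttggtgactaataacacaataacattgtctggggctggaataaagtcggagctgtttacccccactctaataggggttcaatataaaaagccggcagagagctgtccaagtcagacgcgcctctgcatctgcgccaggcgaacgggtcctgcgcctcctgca
The ADM window held 1 GCGTG, whose first base lay at position -101 from the gene start. The ANGPTL4 window held 1 ACGTG on the minus strand at -234, and the EDN1 window 1 on the minus strand at -123. Windows were found for 7 of the 10 members, with 10 windows in all, and 9 of them held a match, at least 1 for each of the 7 genes. No window was found for VEGFA, ANGPT1 or ANGPT2. Among 35116 windows of all genes, 48.4% held either word (21.4% ACGTG and 36.5% GCGTG). A match was therefore common, and it was present both in ADM and ANGPTL4, which rose, and in VEGFB, VEGFC, PGF, FGF2 and EDN1, of which no probe set passed. It describes the letters of the window and not a bound site.

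The deposited values are linear probe set intensities, and the arrays were not on a common scale. Median intensity was 85.5 and 63.0 on the DFO arrays, 83.6 and 49.9 on the Dp44mT arrays, and 88.9 and 88.8 on the control arrays, in the order of the set numbers 1 and 2 in the sample titles. The set 2 arrays of both chelators were thus the dimmest over all probe sets. Tests were therefore run on quantile-normalized log2(intensity + 16) values, on which all 6 arrays share 1 distribution. The 3' to 5' ratio of the ACTB control probe sets, a sign of RNA integrity, was 1.2 and 1.3 in DFO, 1.14 and 1.41 in Dp44mT, and 1.36 and 1.32 in control. Neuroendocrine markers of small cell lung cancer had summed deposited intensities over 10 measured genes of 28314 and 18150 in DFO, 24253 and 13279 in Dp44mT, and 31589 and 35872 in control. These sums also carry the brightness of each array. On normalized values the median log2 difference of the 10 was −0.32 in DFO and −0.55 in Dp44mT. Among them 1, the transcription factor gene INSM1, fell in Dp44mT (log2 −3.37, limma adjusted p = 0.0176). That call was lost without scaling and with either control array or either Dp44mT array left out, where no probe set of any gene passed in Dp44mT. Among 10 endothelial markers, 4 (CDH5, CLDN5, ESAM and MMRN1) were under the 25th percentile of every array and 6 were under it on none, with PECAM1 between 313 and 1009 and EGFL7 between 344 and 902.

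VEGFA, ADM and ANGPTL4 rose with both chelators, and the other 7 genes had no probe set past the threshold. In DFO, 7 of the 23 probe sets were called higher and 0 lower at a Benjamini-Hochberg adjusted p under 0.05 in limma's moderated test over all probe sets, where 0.320% of all probe sets were called, 0.313% higher and 0.00732% lower. In Dp44mT the same 7 probe sets were called higher and 0 lower, where 1.02% of all were called, 0.692% higher and 0.328% lower. The median log2 difference over the 23 was 0.25 in DFO and 0.44 in Dp44mT, against −0.03 and 0.02 over all probe sets. Both comparisons used the same 2 control arrays.

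**Figure D1:**
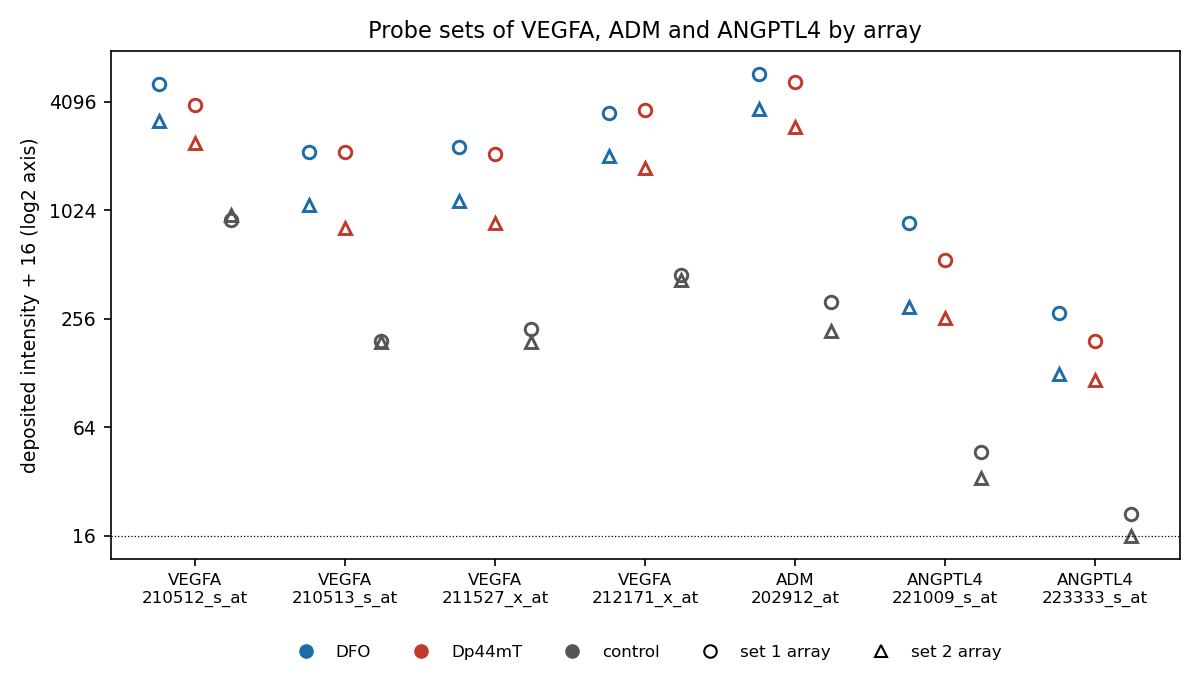
Deposited intensity plus 16, on a log2 axis, of the 7 probe sets of VEGFA, ADM and ANGPTL4, with 1 point per array (circles set 1, triangles set 2; DFO blue, Dp44mT red, control grey). All 4 chelator arrays lie above both control arrays in each probe set, and the set 2 chelator arrays lie below the set 1 arrays of the same chelator.

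ADM, whose peptide relaxes vessel walls, rose with both chelators. Its probe set 202912_at had intensities of 5820 and 3693 in DFO, 5246 and 2949 in Dp44mT, and 299 and 202 in control. Even the dimmest chelator array stood far above the brighter control array. On the normalized scale ADM averaged 12.21 ± 0.09 in DFO, 12.16 ± 0.04 in Dp44mT and 7.75 ± 0.37 in control (SD, n = 2 arrays each). The log2 difference from control was 4.45 (SE 0.24, 95% interval 3.85 to 5.05, limma adjusted p = 0.0172) for DFO and 4.40 (SE 0.24, 3.80 to 5.0, adjusted p = 0.0110) for Dp44mT.

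VEGFA was covered by 4 probe sets, and all 4 rose with both chelators. Probe set 210512_s_at read 5083 and 3181 in DFO, 3902 and 2395 in Dp44mT, and 883 and 948 in control. Probe set 210513_s_at read 2141 and 1074 in DFO, 2129 and 798 in Dp44mT, and 176 and 173 in control. The groups did not overlap in either one. The 2 probe sets whose names end in x_at, a suffix for probes that may also match other transcripts, behaved likewise. Probe set 211527_x_at read 2269 and 1136 in DFO, 2086 and 850 in Dp44mT, and 208 and 175 in control. Probe set 212171_x_at read 3510 and 2030 in DFO, 3654 and 1739 in Dp44mT, and 433 and 403 in control. All chelator arrays exceeded all control arrays in these as well.

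The size of the VEGFA difference depended on the probe set. It was smallest in 210512_s_at, at 2.49 (95% interval 1.98 to 3.0) for DFO and 2.33 (1.82 to 2.84) for Dp44mT. It was largest in 210513_s_at, at 3.30 (2.79 to 3.81) for DFO and 3.39 (2.87 to 3.9) for Dp44mT. The remaining VEGFA values were 3.27 for DFO and 3.31 for Dp44mT in 211527_x_at, and 3.0 for DFO and 3.17 for Dp44mT in 212171_x_at. In fold terms VEGFA thus ranged between 5.63 and 9.85 in DFO and between 5.01 and 10.5 in Dp44mT. The limma adjusted p of the 4 lay between 0.0172 and 0.0207 in DFO and between 0.0110 and 0.0205 in Dp44mT. Which VEGFA transcripts each probe set reads was not tested.

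ANGPTL4, whose product restrains lipoprotein lipase, was dim in control cells. Probe set 221009_s_at read 849 and 282 in DFO, 527 and 243 in Dp44mT, and 30.3 and 17.2 in control. Probe set 223333_s_at read 259 and 110 in DFO, 177 and 100.1 in Dp44mT, and 5.22 and 0.0115 in control. Both control arrays lay under their own array's 25th percentile in either probe set, and no chelator array did. The log2 differences were 3.80 (SE 0.31, adjusted p = 0.0207) in DFO and 3.73 (SE 0.31, adjusted p = 0.0175) in Dp44mT for 221009_s_at, and 3.33 (SE 0.25, adjusted p = 0.0189) and 3.32 (SE 0.25, adjusted p = 0.0138) for 223333_s_at. Because control values were near or below the added 16, these sizes depend on it: with 1 added instead, 223333_s_at gave 6.18 and 6.17. Neither ANGPTL4 probe set then passed in either chelator (limma adjusted p between 0.0558 and 0.137). Lost calls with 1 added were not limited to ANGPTL4. In DFO, ADM (limma adjusted p = 0.0622) and every VEGFA probe set (0.0622 to 0.0744) also failed, with ADM at 4.56. In Dp44mT, VEGFA probe set 210512_s_at failed (0.0636), while ADM and the other VEGFA probe sets passed (0.0424).

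**Figure D2:**
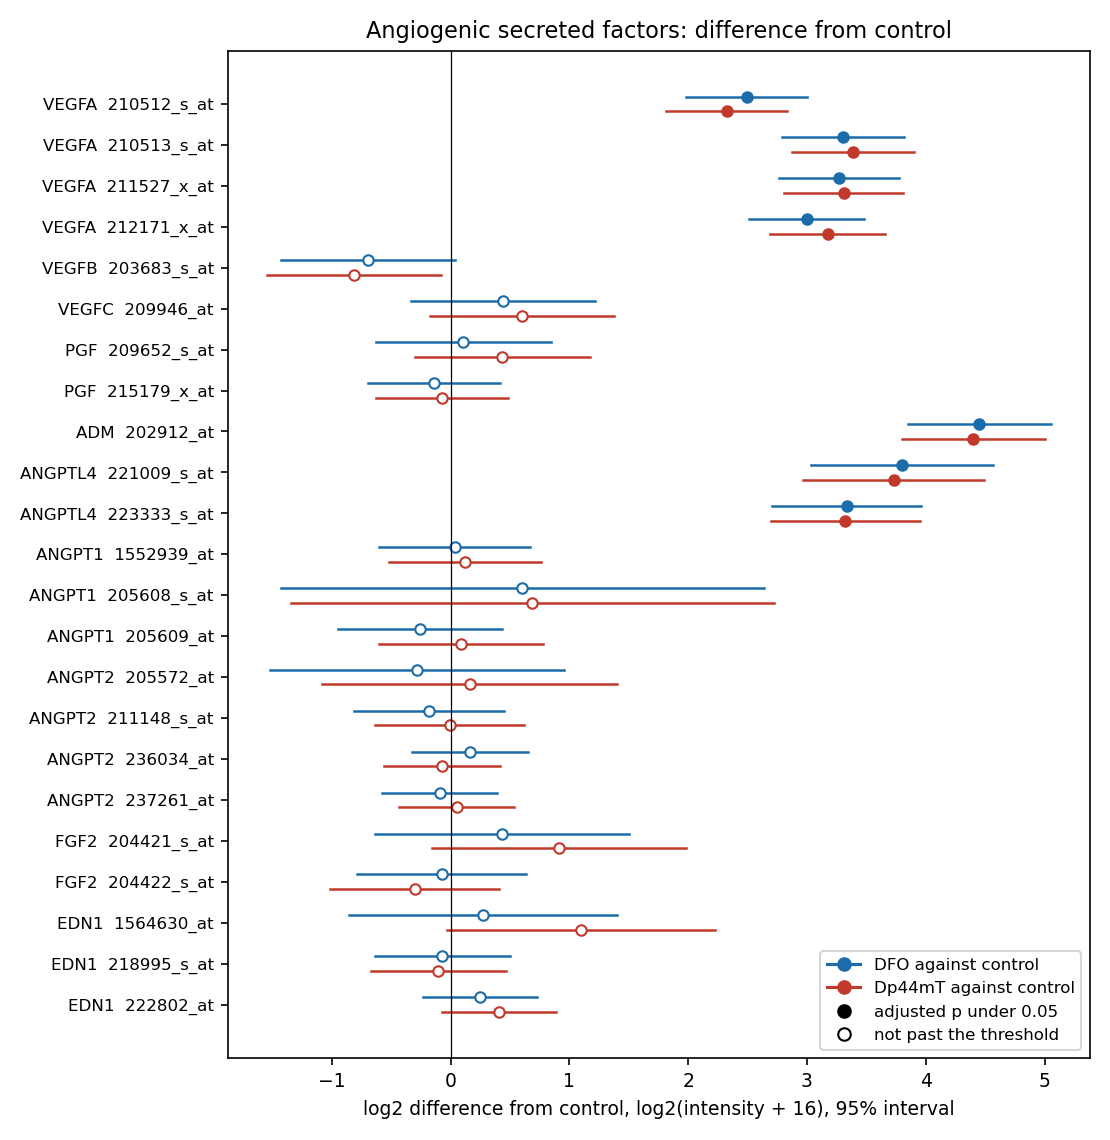
Log2 difference from control with its 95% interval for each of the 23 probe sets, on quantile-normalized log2(intensity + 16) values (DFO blue, Dp44mT red; filled points have an adjusted p under 0.05). The 7 probe sets of VEGFA, ADM and ANGPTL4 stand between 2.33 and 4.45, and the other 16 lie between −0.81 and 1.1.

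These calls rested on the pooled spread of 6 arrays. In DFO, 0 of the 23 probe sets passed in limma when control replicate 1, control replicate 2, DFO replicate 1, DFO replicate 2 or Dp44mT replicate 2 was left out, and 4 passed without Dp44mT replicate 1, although 7 or 8 had an unadjusted p under 0.05 each time. In Dp44mT, 0 passed without control replicate 1, control replicate 2, Dp44mT replicate 1 or Dp44mT replicate 2 (7 to 11 unadjusted), and 7 passed without either DFO array. On the deposited scale without normalization, 0 probe sets of any gene passed (1877 unadjusted in DFO and 7061 in Dp44mT), with the 7 differences at 2.12 to 4.15 in DFO and 1.72 to 3.91 in Dp44mT against medians over all probe sets of −0.25 and −0.35. Without both set 2 chelator arrays, ADM stood at 4.40 in DFO and 4.39 in Dp44mT, with 0 of the 23 called in DFO (9 unadjusted) and 7 in Dp44mT. In that fit each chelator is a single array assumed to vary like the control, and the spread comes from the 2 control arrays alone.

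The other members of the VEGF family did not follow VEGFA. VEGFB, a ligand of the receptor FLT1, read 646 and 277 in DFO, 537 and 169 in Dp44mT, and 763 and 1045 in control. It was below both control arrays on every chelator array, also after normalization, with a log2 difference of −0.70 (95% interval −1.42 to 0.03, limma adjusted p = 0.555) in DFO and −0.81 (−1.54 to −0.08, adjusted p = 0.233) in Dp44mT. Neither value passed. VEGFC, the lymphatic growth factor, read 50.3 and 61.9 in DFO, 59.9 and 56.0 in Dp44mT, and 54.0 and 38.1 in control. Its differences of 0.44 in DFO and 0.60 in Dp44mT did not pass (adjusted p = 0.750 and 0.359).

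PGF, the placental ligand of FLT1, had 2 probe sets, and neither passed. Probe set 215179_x_at read 1632 and 1120 in DFO, 1664 and 776 in Dp44mT, and 1681 and 2336 in control, with differences of −0.14 (95% interval −0.70 to 0.42) in DFO and −0.07 (−0.63 to 0.49) in Dp44mT. Neither interval reaches the smallest VEGFA difference, 2.33. The x_at suffix is for probes that may also match other transcripts, and whether this brighter signal comes from PGF was not tested. Probe set 209652_s_at stayed between 11.3 and 23.3 on all 6 arrays and was under the array's 25th percentile on 5 of them.

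EDN1 and FGF2 values differed by probe set, and both FGF2 probe sets were dim on most arrays. EDN1 probe set 1564630_at read 178 and 238 in DFO, 334 and 274 in Dp44mT, and 172 and 275 in control. After normalization both Dp44mT arrays lay above both control arrays, with a difference of 1.1 (95% interval −0.03 to 2.22, limma adjusted p = 0.280), and DFO overlapped control at 0.27 (adjusted p = 0.871). The other EDN1 probe sets stood at −0.07 and 0.25 in DFO and at −0.10 and 0.41 in Dp44mT. FGF2 probe set 204421_s_at read 14 and 38.6 in DFO, 33.2 and 39.9 in Dp44mT, and 15.3 and 19.6 in control, with differences of 0.43 in DFO and 0.91 (−0.15 to 1.98, adjusted p = 0.327) in Dp44mT. That probe set was under the array's 25th percentile on 4 of the 6 arrays, with control values near the added 16. FGF2 probe set 204422_s_at was under the 25th percentile of every array. No FGF2 or EDN1 probe set passed in either comparison.

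The angiopoietins were dim in most probe sets. ANGPT1 probe set 205608_s_at read 105 and 215 in DFO, 81.2 and 217 in Dp44mT, and 144 and 105 in control. Both set 2 chelator arrays were above both control arrays, and both set 1 chelator arrays were below control array 1. On the normalized scale the arrays stood at 6.73 and 8.24 in DFO, 6.48 and 8.67 in Dp44mT, and 7.07 and 6.70 in control. Over all arrays it was 0.60 (95% interval −1.43 to 2.64, limma adjusted p = 0.844) in DFO and 0.69 (−1.34 to 2.72, adjusted p = 0.636) in Dp44mT, the widest intervals of the 23, and without both set 2 chelator arrays it turned to −0.17 and −0.44. The other 2 ANGPT1 probe sets and ANGPT2 probe set 211148_s_at were under the 25th percentile of every array. The 4 ANGPT2 probe sets read between 1.81 and 39.8, with differences between −0.28 and 0.16 in both chelators.

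**Figure D3:**
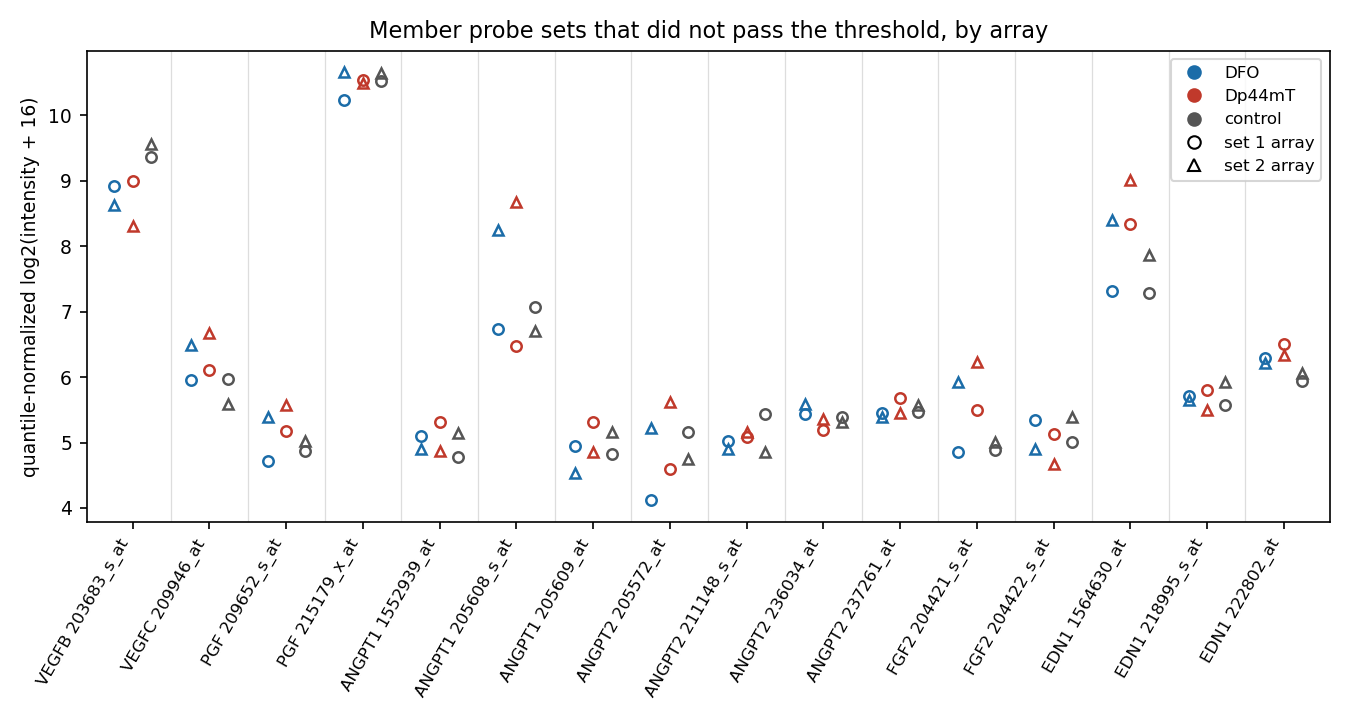
Quantile-normalized log2(intensity + 16) of the 16 member probe sets that did not pass, with 1 point per array (circles set 1, triangles set 2; DFO blue, Dp44mT red, control grey). VEGFB is below control on all 4 chelator arrays (25.9% of all probe sets are wholly below in DFO and 30.0% in Dp44mT). ANGPT1 probe set 205608_s_at splits by set, with both set 2 chelator arrays above 8.

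Markers of other cell types also differed between arrays of the same group. On normalized values, 5 of 10 fibroblast markers, 6 of 10 endothelial markers and 4 of 8 leukocyte markers were higher on both set 2 chelator arrays than on both set 1 chelator arrays. So were 6 of the 16 member probe sets that did not pass and 25.4% of all probe sets. Lower on both set 2 chelator arrays were 1 fibroblast, 0 endothelial and 0 leukocyte markers, 5 of those 16 member probe sets and 35.9% of all probe sets. Of 10 neuroendocrine markers, 2 were higher and 3 lower. Of the listed markers, 4 endothelial and 1 fibroblast were under the 25th percentile of every array. Summed over 10 fibroblast markers, intensity was 1782 and 2253 in DFO, 1891 and 2040 in Dp44mT, and 2073 and 1571 in control. The split between the control arrays was wide for 4 of these markers: COL1A2 read 265 and 37.2, COL3A1 303 and 47.1, DCN 217 and 42.5, and POSTN 277 and 60.5, on control arrays that enter both comparisons. Summed over 10 endothelial markers it was 1530 and 1894 in DFO, 1529 and 1726 in Dp44mT, and 1760 and 1563 in control, and over 8 leukocyte markers 502 and 534 in DFO, 584 and 455 in Dp44mT, and 504 and 707 in control. No marker of these lists was called in either comparison. Their part in the values of ANGPT1, FGF2 and VEGFC was not tested. All arrays are labelled as 1 cell line, and whether cells of other types were present was not tested. Such arrays cannot tell a change in the share of cells of a type from a change in RNA per cell.

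Groups that do not overlap were common with 2 arrays a group and are read here only beside their background. In DFO, 9 of the 23 probe sets had both treated arrays above both control arrays and 2 had both below, where 16.6% and 25.9% of all probe sets did so. In Dp44mT, 12 were wholly above and 1 wholly below, where 27.3% and 30.0% of all did so. The 9 and the 12 wholly above include the 7 called probe sets, so they overstate how often the others separated from control. Beyond the 7 called, the probe sets wholly above control in Dp44mT were those of VEGFC, PGF (209652_s_at), FGF2 (204421_s_at) and EDN1 (1564630_at and 222802_at). Such separation was shown by 27.3% of all probe sets and is not read as a response of these genes. Nor is that of VEGFB, which lay wholly below control in both chelators.

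The chelators were also set against each other, at the doses used, which differ (25 µM Dp44mT and 250 µM DFO). No probe set of any gene passed in Dp44mT against DFO (0 of 54613, 0% called; 1699 had an unadjusted p under 0.05, of which 0 were members). The log2 difference of Dp44mT from DFO was −0.05 for ADM (95% interval −0.65 to 0.55), between −0.17 and 0.18 for the 4 VEGFA probe sets, and −0.07 (−0.84 to 0.69) and −0.01 (−0.63 to 0.61) for ANGPTL4. The largest was that of EDN1 probe set 1564630_at at 0.82 (−0.30 to 1.95, limma adjusted p = 0.976). The intervals leave room for differences in either direction and do not show that the chelators act alike. They also take no account of deviations that same-numbered chelator arrays shared (correlation 0.79). With the set number as a block in limma, 0 probe sets passed and 2641 had an unadjusted p under 0.05.

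Of the genes that receive, process or oppose these factors, 2 passed the test, SDC1 and SPRY4, both in Dp44mT. Among all probe sets 0.320% were called in DFO and 1.02% in Dp44mT, and the 2 are not read as a result about these lists. For a gene with several probe sets, the one of highest average intensity stands for it. Of 16 measured receptor genes 0 passed in DFO and 0 in Dp44mT (median log2 difference 0.20 and 0.35). FGFR1, a receptor for FGF2, had the smallest p, with intensities of 1950 and 1153 in DFO, 1233 and 814 in Dp44mT, and 669 and 736 in control, and differences of 1.47 (limma adjusted p = 0.104) and 1.21 (adjusted p = 0.0871). NRP1, a co-receptor of VEGFA, read 901 and 349 in DFO, 226 and 102 in Dp44mT, and 328 and 198 in control. Its difference was 1.35 in DFO (adjusted p = 0.252) and −0.13 in Dp44mT (adjusted p = 0.818), and that of Dp44mT from DFO was −1.48 (SE 0.31, adjusted p = 0.976).

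Of 12 genes for processing and release, 0 passed in DFO (median 0.11) and 1 fell in Dp44mT (median 0.02). This was SDC1, a heparan sulfate proteoglycan that holds growth factors at the cell surface, with intensities of 964 and 465 in DFO, 417 and 187 in Dp44mT, and 1215 and 1768 in control. SDC1 fell by 3.04-fold in Dp44mT (log2 −1.61, SE 0.20, limma adjusted p = 0.0409), and its difference in DFO, −0.73, did not pass. Of 14 other angiogenic ligands 0 passed in either chelator (medians 0.01 in DFO and 0.18 in Dp44mT), with PDGFA at 0.63 and 0.94 and APLN at 0.67 and 0.26 in DFO and Dp44mT. Of 12 inhibitors of angiogenesis, 0 passed in DFO (median 0.12) and 1 rose in Dp44mT (median 0.11). This was SPRY4, an inhibitor of growth factor signalling inside the responding cell, with intensities of 448 and 263 in DFO, 474 and 251 in Dp44mT, and 189 and 153 in control. SPRY4 rose by 2.97-fold in Dp44mT (log2 1.57, SE 0.20, adjusted p = 0.0413), and stood at 1.2 in DFO without passing. In Dp44mT neither SDC1 nor SPRY4 passed with any 1 array left out (limma adjusted p between 0.0634 and 0.514) or under the 3 other scalings run (0.0780 to 0.425).

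**Figure D4:**
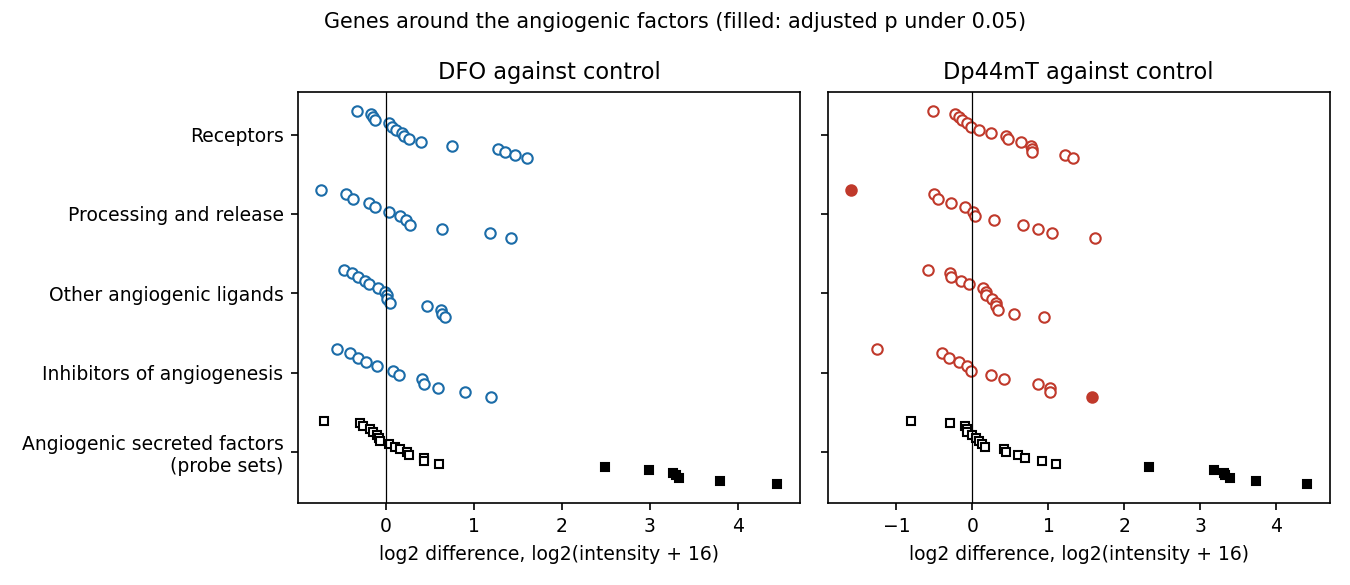
Log2 difference from control of each measured gene of 4 lists (circles) and of the 23 member probe sets (squares), for DFO at left and Dp44mT at right, with filled symbols for an adjusted p under 0.05. The 7 filled squares of VEGFA, ADM and ANGPTL4 lie beyond every listed gene, and the filled circles are SDC1 and SPRY4 in Dp44mT.

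The genes whose values ran closest to VEGFA and ADM over the 6 arrays were found by the Euclidean distance of log2 values centred on each gene's control mean. For VEGFA probe set 210512_s_at these were DUSP10, a MAP kinase phosphatase, at a distance of 0.27, EGLN1, the HIF prolyl hydroxylase, at 0.33, and BNIP3L, a mitophagy receptor, at 0.34. Their log2 differences were 2.46, 2.34 and 2.53 in DFO and 2.35, 2.20 and 2.49 in Dp44mT. For ADM they were the stress transcription factor ATF3 at 0.37, ANKRD37 at 0.57 and the AP-1 subunit FOS at 0.67. Their differences were 4.40, 4.12 and 4.37 in DFO and 4.62, 4.26 and 4.74 in Dp44mT. Every distance was taken over the same 6 arrays and depends largely on the size of the difference from control. VEGFA probe set 210512_s_at was used as the brightest of its gene, and it had the smallest VEGFA difference. The genes nearest to the other VEGFA probe sets were not sought.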

How the data were processed

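The authors deposited probe set intensities on a linear scale for 54675 probe sets on each of 6 arrays. Per the submitters' processing notes, Affymetrix Expression Console 1.1 was used, and the summarization and normalization are not given in the sources used here. The 62 control probe sets (AFFX) were left out of the tests. Intensities were taken to log2(intensity + 16) and quantile normalized over the 6 arrays, because the array medians differed. Symbols came from the platform annotation, which gives a single symbol for 41097 probe sets, several for 1801 and none for 11777, with symbols of list genes updated through gene IDs. Group means were compared with limma 3.58.1 in R 4.3.3, two-sided, with 3 groups in 1 model (3 residual and 2.67 prior degrees of freedom), no filter on low values and p-values adjusted over all 54613 probe sets. A fold change refers to the log2(intensity + 16) scale and understates the change of dim probe sets. Precision is limited by the number of arrays, 2 a group: 95% intervals extended a median of 0.68 (log2) to each side. The fit was checked on simulated data with independent arrays, which cannot show its error rate where arrays share deviations.

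The members, the lists and the tests were chosen with earlier results of these data known. Named genes were all member probe sets, the called genes of each list (up to 4, each by the probe set of highest average intensity) or else the 2 with the smallest p, and for VEGFA and ADM the 3 genes nearest in pattern. Alternatives were other scalings, pseudocounts of 1 and 64, a filter at the 25th percentile, an intensity trend in the variance, 1 probe set a gene, arrays left out, the set number as a block, and only 2 groups in the fit.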

Additional observations from a re-analysis of the deposited data

How the results depend on the processing

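The 7 called values of each chelator kept their sign in all 115 values computed under the alternatives (17 for 3 of the probe sets and 16 for the other 4, which the alternative with 1 probe set a gene leaves out), a direction that groups without overlap fix and that is no sign of stability. The 16 other probe sets were called under no alternative, and their sign changed in 22 of 252 values for DFO and 26 of 252 for Dp44mT. For Dp44mT against DFO, over all 23 probe sets, it changed in 36 of 367. Member probe sets called numbered 0 in both chelators without scaling. With a pseudocount of 1 there were 0 in DFO and 4 in Dp44mT. With 1 probe set a gene, VEGFA, ADM and ANGPTL4 passed in each chelator, a count of 3 that is the most these genes allow there. Without both set 2 chelator arrays, where the spread comes from the 2 control arrays alone, and with only the 2 groups in the fit, 0 passed in DFO. With 1 array left out the count ran from 0 to 4 in DFO and from 0 to 7 in Dp44mT. The cause of these losses was not tested. Probe sets called among all numbered 175 in DFO and 557 in Dp44mT. They were 0 and 0 without scaling, 111 and 251 with array medians subtracted, 110 and 225 with linear scaling, 2 and 86 with a pseudocount of 1, 438 and 1327 with 64, and 456 and 1371 with an intensity trend. In DFO 0 passed without both set 2 chelator arrays, and 0 in DFO and 220 in Dp44mT with only 2 groups in the fit. With 1 array left out the range was 0 to 35 in DFO and 0 to 224 in Dp44mT. The calls in Dp44mT were 67.9% higher, against 59.0% with array medians subtracted. With the set number as a replicate block, 163 probe sets passed in DFO and 913 in Dp44mT, and 7 members in each. The numbers were not taken as pairing chelator with control arrays, whose same-numbered deviations correlated at −0.18 for DFO and −0.26 for Dp44mT. Same-numbered arrays of the chelators did deviate alike (0.79 for Dp44mT with DFO), which the main fit left out. With the control numbers crossed, an alternative chosen after seeing the data, 381 and 4668 passed, and 7 members in each.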

Other observations

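Among receptor genes of the VEGF family, named here after their values were seen, FLT1 and KDR had their highest intensity on DFO array 1, whereas FLT4 had its lowest there (85.9 and 127 in DFO, 107 and 168 in Dp44mT, and 124 and 105 in control). FLT1, a receptor of VEGFA, VEGFB and PGF, read 428 and 155 in DFO, 96.2 and 121 in Dp44mT, and 92.6 and 77.7 in control. Its log2 difference was 1.61 in DFO (limma adjusted p = 0.320) and 0.79 in Dp44mT (adjusted p = 0.371). KDR, the main signalling receptor of VEGFA, read 260 and 78.3 in DFO, 56.3 and 19.2 in Dp44mT, and 70.6 and 43.5 in control, with a difference of 1.28 in DFO (adjusted p = 0.419) and −0.23 in Dp44mT (adjusted p = 0.755). Neither passed in any comparison, and the difference of Dp44mT from DFO was −0.82 for FLT1 and −1.51 for KDR (adjusted p = 0.976 for both).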
